A study of Arabidopsis thaliana with 4 samples.

Results

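The comparison set the day 7 array of a suspension culture of Arabidopsis thaliana against its day 1 array, and looked at stress genes whose symbol in the naming tables is only a locus code. Of 22746 probe sets, 8127 were bright, that is, had a signal of 100 or more on day 7 or on day 1. Stress genes were taken from 29 lists of 858 loci, which cover protein folding, oxidative stress, defence, water deficit, low oxygen and nutrient starvation. Of these loci, 323 have a probe set that names them alone, and 237 of the 323 carry no symbol other than the code. A probe set was bright for 59 of the 237, and these 59 genes are described here beside the whole set of bright probe sets.

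The cells were MM2d, an undifferentiated cell line grown in the dark. They came from 5 ml of an early stationary culture, itself 7 days old, put into 100 ml of new MSS medium and turned at 130 rpm and 27 °C. The medium held MS salts, sucrose at 3%, the auxin NAA at 0.5 mg/l and the cytokinin kinetin at 0.05 mg/l. The day 7 and day 1 cells thus shared line, medium and culture conditions, and differed in days since dilution. Each day was 1 sample of total RNA on 1 ATH1 array, with days 3 and 5 as further samples. Every difference below is one between single arrays, with no replicate and no test.

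Plant cells answer heat, oxidants, water deficit, infection and lack of nutrients with partly shared sets of proteins. Heat shock proteins hold unfolded proteins in solution and refold them. Universal stress proteins, zinc-finger proteins of the A20/AN1 type and small membrane proteins respond to many conditions, and chitinases, thaumatin-like proteins and PR1-like proteins are secreted in defence. Apart from synonyms that name AT5G48570, AT2G44060 and AT2G46140, the tables hold no function for the 59 loci. A gene's place in a list rests on general knowledge of the genome and was not checked against a sequence, and for the other codes roles are given for lists rather than single genes.

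Among the bright probe sets as a whole, 1443 were at least 2-fold higher on day 7 (17.8%) and 1365 at least 2-fold lower (16.8%), together 34.6%. Over all 22746 probe sets the shares were 8.81% and 7.05%. A log2 ratio here is that of day 7 over day 1 with signals below 25 raised to 25, and a ratio against that floor is a bound. The median log2 ratio of the bright probe sets was 0.01, with quartiles of -0.70 and 0.72. Of the 8127, 4111 lay above 0 and 4016 below 0. The limit of 100 needs a high signal on 1 day only, so part of the spread is fixed by the choice: 1597 probe sets were bright on day 7 alone, 1026 on day 1 alone and 5504 on both days. Of these 5504, 456 were higher by 2-fold or more on day 7 and 825 lower, together 23.3%.

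The share of lower probe sets grew with brightness. Among probe sets whose higher signal lay between 100 and 200, 592 of 3403 were at least 2-fold higher on day 7 (17.4%) and 331 at least 2-fold lower (9.73%). Among those at 800 or more, 166 of 928 were higher (17.9%) and 339 lower (36.5%).

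**Figure D1:**
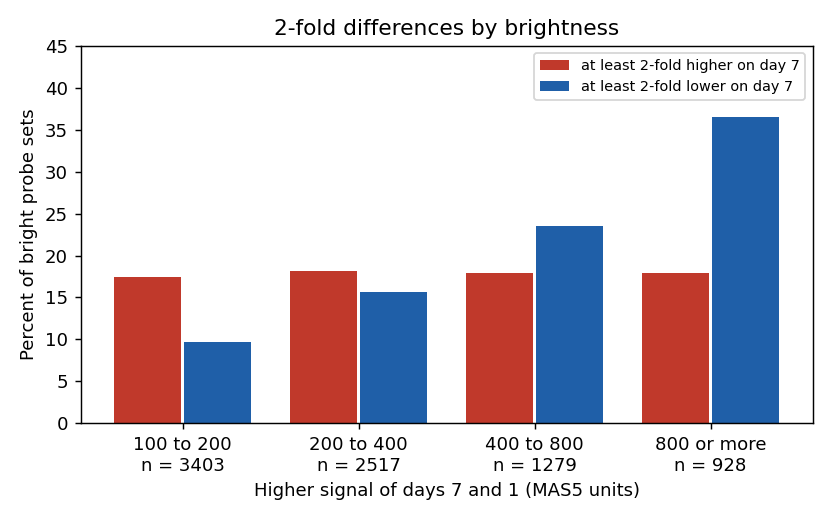
Percent of bright probe sets at least 2-fold higher (red) or lower (blue) on day 7 than on day 1, in 4 classes of the higher signal of the 2 days, with the number of probe sets in each class under the bars. The share of higher probe sets stays between 17.4% and 18.1%, and that of lower ones is 9.73% in the dimmest class and 36.5% in the brightest.

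The split between higher and lower depends on how the arrays are set to each other. The deposited signals have a trimmed mean of 100.0 on both days, while the median of all probe sets was 44.3 on day 7, against 36.3 on day 1. A common median moves the log2 ratio of a probe set by -0.29 where both signals stay above the floor, and by less where one is at it. With it, the bright probe sets, chosen anew after each matching, split into 989 higher and 2059 lower. With the 18 probe sets of the hybridisation controls as the yardstick, of which 15 were lower on day 7, they split into 2209 higher and 826 lower. RNA integrity can be read from control probe sets at both ends of a transcript: the 3' signal over the 5' signal was 3.79 on day 7, against 4.31 on day 1, for the array's first actin controls, and 1.05, against 1.45, for its second ones. For ubiquitin it was 2.98 on day 7, against 3.88 on day 1, with the first and 1.24, against 1.59, with the second, and for GAPDH 1.15, against 1.16, and 1.12, against 0.979. The part of RNA quality in the results was not tested. As a gauge of disagreement between probe sets, 38 genes had 2 bright probe sets, whose ratios should be equal. They gave an SD of 0.70 log2 for a single probe set, and 9 of the 38 pairs lay at least 1 log2 apart. Both probe sets of a pair were read from the same arrays, so the SD leaves out error between cultures and labellings, which was not measured. The 13 genes fixed as markers of green cells have no probe set named here, so that cell type could not be checked.

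Of the 59 bright stress genes, 16 were at least 2-fold higher on day 7 (27.1%) and 14 at least 2-fold lower (23.7%), a joint share of 50.8% beside 34.3% for all 3616 bright probe sets known only by a locus code. Their median log2 ratio was -0.05, with quartiles of -0.95 and 1.03 and 28 genes above 0. Bright stress genes were chosen anew after each matching, so the counts that follow are not of the same 59. Matched by median, 11 were higher and 18 lower. With the 75th percentile made equal it was 12 higher and 18 lower, and by the hybridisation controls 19 higher and 11 lower. Of the 59, 33 were bright on both days, and of these 4 passed 2-fold upward and 4 downward on day 7. Their share of 24.2% stands beside 23.1% for the 2374 probe sets known only by locus code and bright on both days, so the higher joint share of the 59 is not present among genes bright on both days. The other 26 were bright on 1 day only, 13 on day 7 and 13 on day 1. That choice fixes their side of 0 and favours large ratios. The same rule chose the 3616, of which 741 were bright on day 7 only and 501 on day 1 only. What lies behind the higher joint share of the 59 was not tested. Of 37 bright probe sets of the same lists that carry a symbol, 3 passed 2-fold upward and 4 downward, beside a share of 30.6% in either direction for all 650 bright probe sets with a symbol.

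The 2-fold mark was lost by 7 of the 30 genes when the arrays were matched otherwise. With a common median the log2 ratios of AT1G10090, AT1G69840, AT3G17020 and AT3G57480 were 0.76, 0.76, 0.89 and 0.73. With the hybridisation controls those of AT2G28790, AT3G10020 and AT5G44730 were -0.93, -0.73 and -0.84. The bounds and the ratios of dim genes depend on the floor: with one of 50, all 11 genes at least 4-fold different passed 2-fold, and 3 of them, AT5G09570, AT1G05340 and AT3G52800, passed 4-fold.

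**Figure D2:**
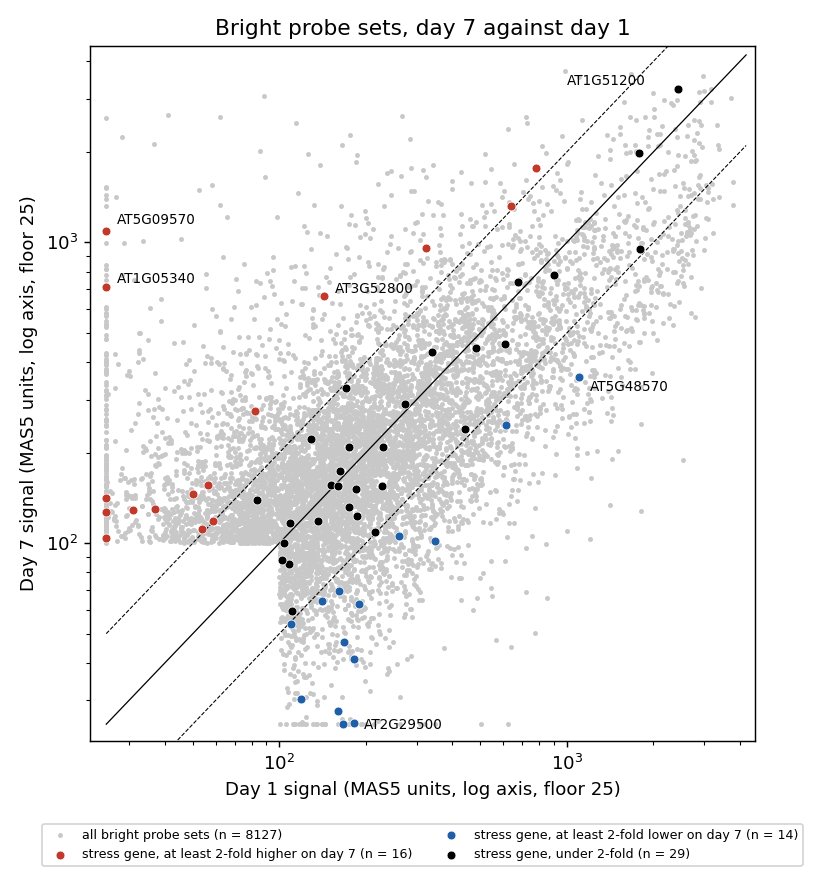
Day 7 signal (vertical) against day 1 signal (horizontal) of all 8127 bright probe sets (grey), both in MAS5 units on log axes with the floor at 25, with the 59 stress genes in colour. The solid line marks equal signals and the dashed lines 2-fold; 16 stress genes lie above the upper dashed line and 14 below the lower one, with AT5G09570 and AT1G05340 at the left edge, where day 1 is at the floor.

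Of the 9 small heat shock probe sets known by locus code, 3 were bright. These 3 genes, of the family that binds unfolding proteins without using ATP, were all at least 4-fold lower on day 7. AT2G29500 had a signal of 25.2 on day 7, against 181 on day 1, a log2 ratio of -2.85 (7.19-fold lower). AT1G53540 had 27.6 on day 7, against 159 on day 1 (-2.53), and AT1G54050 had 41.1, against 182 (-2.15). All 3 were thus near the floor on day 7 and moderately bright on day 1, and under 7 other floors and scalings all 3 kept log2 ratios of -1.67 or lower. The 6 dimmer members of the list did not all go this way: AT5G51440 was at 43.3 on day 7, against 81.7 on day 1, AT5G37670 was at 47.2, against 30.3, and 3 were below the floor on both days.

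In the list of HSP70, HSP90, HSP100, HSP60 and co-chaperones, 1 of 6 bright genes was at least 2-fold lower on day 7 and 0 were at least 2-fold higher. Only 7 probe sets known by locus code and 5 with a symbol stand for the 40 loci of this list. The counts therefore do not speak for each family in its name, and none of the 5 symbols names an HSP90, HSP100 or HSP60. The median log2 ratio was -0.72, and all 6 lay below 0, or 4 of the 6 with the hybridisation controls. That gene was AT5G48570, for which the RefSeq table gives the synonym ROF2, a prolyl isomerase that works with HSP90. It had a signal of 358 on day 7, against 1100.2 on day 1 (3.08-fold lower). AT3G09440 was among the brightest of the 59, with 948 on day 7 and 1791 on day 1 (log2 ratio -0.92). AT2G20560 had 59.6 on day 7, against 111 on day 1 (-0.89), and AT5G01390 had 155, against 227 (-0.55). AT1G11660 (-0.20) and AT4G28480 (-0.05) differed little.

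Chaperone genes with a symbol lay on the same side. Fes1A, which keeps HSP70 from being degraded, had a log2 ratio of -1.28, Hsp70-2 one of -1.07, and the co-chaperones Hop3, Hop2 and Hop1, which link HSP70 to HSP90, had -0.90, -0.70 and -0.52. Of the 11 bright genes of the list, with or without a symbol, 11 lay below 0 as deposited, beside 4016 of all 8127 bright probe sets. Among them AT2G20560 and Hop3 were bright on day 1 only, which fixed their side of 0. The count stayed at 11 when the arrays were matched by median, by 75th percentile or by quantiles, and was 9 with the hybridisation controls. Matching by median or by 75th percentile lowers the ratios, so it could not have reduced the count. The folding genes of the endoplasmic reticulum went both ways: AT4G16660 (-0.97) and AT5G07340 (-0.28) lay below 0, while the 5 with a symbol had a median of 0.10, with BZIP28 at 0.87 and CRT1b, a calreticulin, at 0.61.

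The largest differences among the 59 were in genes of the mitochondrial stress list, which joins alternative respiration enzymes with genes known to respond when mitochondria are disturbed. AT5G09570 had a signal of 1087 on day 7, against 20.9 on day 1, and was at least 43.5-fold higher. AT1G05340, listed as a responsive gene and not as a mitochondrial protein, had 713 on day 7, against 19.8 on day 1, and was at least 28.5-fold higher. Both were below the floor on day 1, and days 3 and 5 lay between, at 57.9 and 351 for AT5G09570 and at 30.3 and 167 for AT1G05340.

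The other bright genes of the list did not pass 2-fold between days 7 and 1, and all 4 had lower signals on day 3. AT2G21640 had 123 on day 7, against 187 on day 1 (log2 ratio -0.61), and AT2G41730, whose probe set may also bind other transcripts, had 209, against 175 (0.25). NDB4 and NDB2, alternative NADH dehydrogenases, were at -0.41 and -0.27. The list's median of 2.54 over the 4 genes known by locus code therefore rests on 2 of them, and the median of its 2 genes bright on both days was -0.18.

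**Figure D3:**
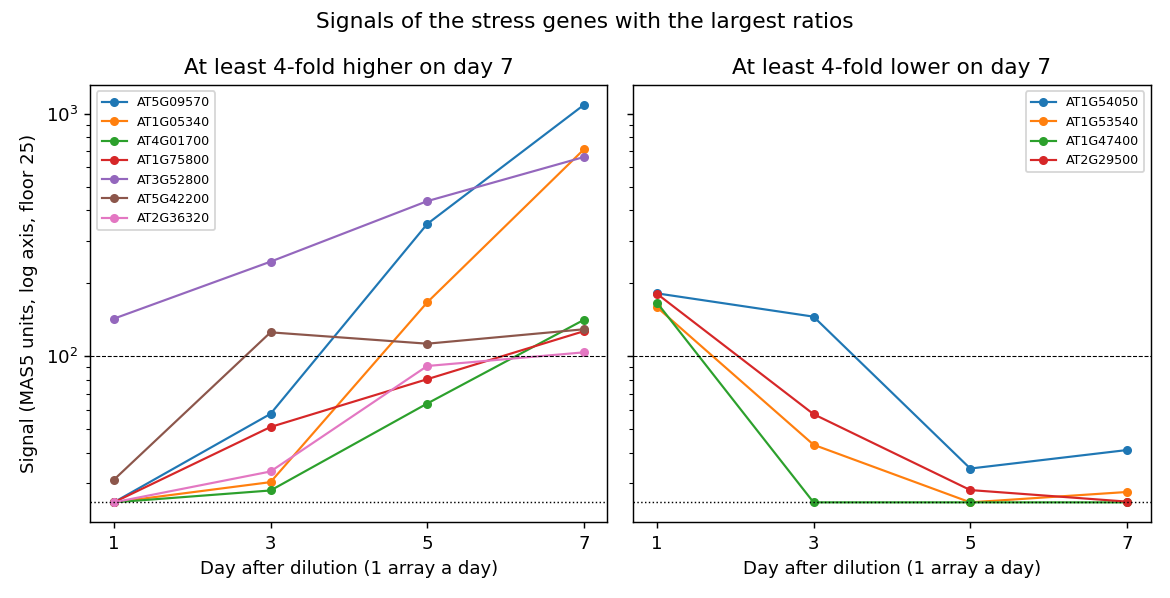
Signals on days 1, 3, 5 and 7 (MAS5 units, log axis, values below 25 drawn at 25) of the 7 stress genes at least 4-fold higher on day 7 (left) and the 4 at least 4-fold lower (right), 1 array a day. The dotted line is the floor and the dashed line the brightness limit of 100; AT5G09570 reaches 1087 on day 7, and AT1G47400 is at the floor from day 3 on.

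The A20/AN1 zinc-finger proteins are named stress-associated proteins because salt, cold and wounding induce their transcripts. They were higher on day 7 in 4 of 6 genes, beside 1801 of all 3616 bright probe sets known only by locus code. Of the 6, 3 were at least 2-fold higher, 0 were at least 2-fold lower and the median log2 ratio was 0.72. AT2G36320 and AT3G57480 were bright on day 7 only, so the brightness limit fixed their side of 0 and favours large ratios. Among the genes of the list bright on both days, only AT3G52800 passed 2-fold. AT1G51200 lay above 0 as well, and AT4G22820 and AT2G27580 lay below 0. AT3G52800 had a signal of 663 on day 7, against 143 on day 1 (4.64-fold higher). AT2G36320 had 104 on day 7, against 16.3 on day 1 (at least 4.15-fold higher), and AT3G57480 had 119, against 58.6 (2.03-fold). AT1G51200 was the brightest probe set known by locus code on day 7, at 3247, against 2441 on day 1 (log2 ratio 0.41). AT4G22820 (-0.13) and AT2G27580 (-0.41) lay below 0. No annexin of the list has a bright probe set named here.

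In the ERD4/OSCA list 2 of 4 bright genes were at least 2-fold higher on day 7, and 1 with a common median. In the list of NDR1/HIN1-like and hypersensitive-induced reaction proteins it was 1 of 3, and 0 with a common median. As deposited, 16.3% of all 3616 bright probe sets known only by locus code passed that mark. All 4 bright genes of the ERD4/OSCA family, whose members include ion channels opened by osmotic stress, lay above 0. AT1G69450, AT1G10090 and AT1G32090 (139 on day 7, against 83.8 on day 1) were bright on day 7 only. The limit of 100 thus fixed their side of 0, and only AT4G22120 (0.09) was bright on both days. AT4G22120 lay below 0 when the arrays were matched by median, by 75th percentile or by quantiles. AT1G69450 had a signal of 130.2 on day 7, against 36.9 on day 1 (3.53-fold higher), and AT1G10090 had 111, against 53.8 (2.06-fold). A second, dimmer probe set of AT1G10090 gave a log2 ratio of 1.13, beside 1.05 for the bright one. In the other list, of plasma membrane proteins linked to defence, AT1G69840 had 1317 on day 7, against 637 on day 1 (2.07-fold higher), AT5G51570 was at 0.35, and AT2G27080 at 0.15 with signals of 1979 on day 7 and 1786 on day 1. All 3 lay above 0, and 2 of the 3 with a common median.

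Universal stress proteins, which bind nucleotides and occur in bacteria as well as plants, differed by less. Of 7 bright genes, 5 lay above 0 and 1 passed 2-fold, with a median log2 ratio of 0.13. AT3G17020 had 1765 on day 7, against 779 on day 1 (2.27-fold higher), after 1889.5 and 1804 on days 3 and 5. AT1G11360 had 327 on day 7, against 171 on day 1 (log2 ratio 0.94), AT3G01520 had 222, against 129 (0.78), and AT3G53990 had 460.2, against 607 (-0.40). With a common median 3 of the 7 lay above 0 and 0 passed 2-fold.

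**Figure D4:**
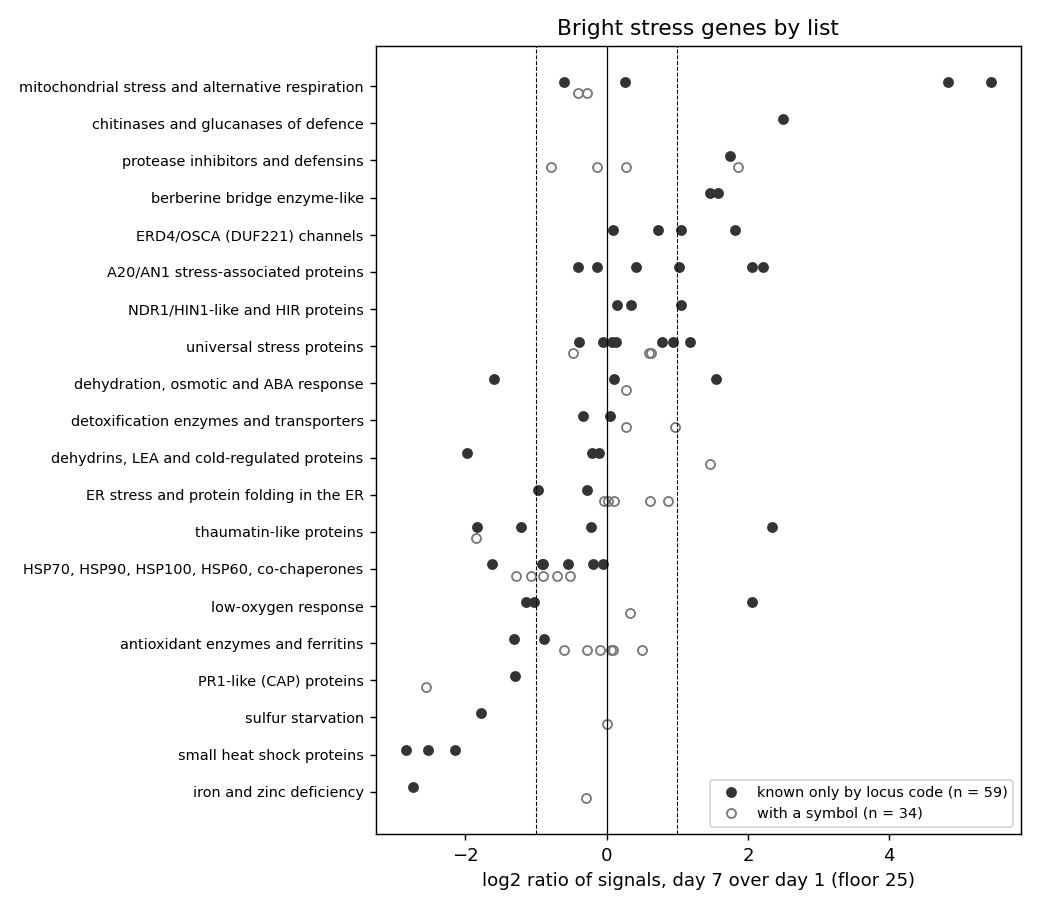
Log2 ratio of the day 7 signal over the day 1 signal (horizontal, floor 25) for the 59 bright stress genes known only by locus code (filled) and for the bright genes with a symbol in the same lists (open), 1 row a list, ordered by the median of the filled points. The dashed lines mark 2-fold; the 3 small heat shock genes lie left of them and the berberine bridge enzyme-like genes right of them, and thaumatin-like genes lie on both sides.

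Secreted defence proteins went both ways, within families as well as between them. AT4G01700, from the list of chitinases and glucanases, enzymes that cut fungal cell walls, had a signal of 141 on day 7, against 16.2 on day 1, and was at least 5.66-fold higher. Among thaumatin-like genes, AT1G75800 had 127 on day 7, against 19.9 on day 1 (at least 5.08-fold higher), while AT4G38660 had 46.9, against 168 (3.58-fold lower), and AT2G28790 had 69.2, against 161 (2.33-fold lower) after a signal of 387 on day 5. ATLP-1, of the same family, was at -1.85. AT5G05110, from the list of protease inhibitors and defensins, had 275 on day 7, against 82.2 on day 1 (3.35-fold higher).

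AT2G19970 was the 1 bright PR1-like gene known by locus code, with 105 on day 7, against 261 on day 1 (2.47-fold lower). PR-1-LIKE, which lies beside it with 1 protein-coding gene between, was lower as well, with a log2 ratio of -2.56. Both bright berberine bridge enzyme-like genes, of a family of secreted flavin oxidases, were higher: AT4G20830 had 961 on day 7, against 323 on day 1 (2.98-fold), and AT4G20860 had 156, against 56.6 (2.76-fold). Of the defensins with a symbol, LCR68 was at 1.86 with 2621 on day 7, against 721 on day 1, and its direct neighbour PDF2.1 at -0.79.

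Genes of water deficit and cold gave no common direction. AT4G30650 and AT4G30660 are direct neighbours in the RefSeq table and stand in the same list, that of dehydration, osmotic and ABA response. AT4G30650 had a signal of 62.5 on day 7, against 189.8 on day 1 (3.03-fold lower), and AT4G30660 had 146, against 49.99 (2.91-fold higher). On days 3 and 5 AT4G30650 had 122 and 59.0, and AT4G30660 had 72.2 and 111.

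Among the late embryogenesis abundant proteins, which protect other proteins as cells dry, AT5G53820 had 30.3 on day 7, against 119 on day 1 (3.94-fold lower), with 131 on day 3. AT2G44060 and AT2G46140, listed in the RefSeq table as LEA26 and LEA27, were bright on both days and differed little, with log2 ratios of -0.21 and -0.11. COR47, a dehydrin, was at 1.46. AT5G42560, from the list of dehydration, osmotic and ABA response, was at 0.10.

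Both bright antioxidant genes known by locus code were lower, AT3G11630 with 248 on day 7, against 614 on day 1 (2.48-fold lower), and AT3G52960 with 239.7, against 442 (log2 ratio -0.88). Enzymes of this list remove peroxides and superoxide. Of 6 antioxidant genes with a symbol, 0 passed 2-fold; ATMDAR2, which regenerates ascorbate, was at 0.51 and PRXIIF at -0.60. AT5G16980 and AT5G16990, direct neighbours of the detoxification list, were at -0.34 and 0.04.

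In each of 2 nutrient lists, the 1 bright gene known by locus code was at least 3-fold lower on day 7. AT1G47400, from the list of genes induced when iron or zinc is short, had a signal of 16.5 on day 7, against 167 on day 1, and was at least 6.66-fold lower. It was at 15.1 on day 3 and at 11.8 on day 5, so that of the 4 arrays only that of day 1 showed it above the floor. AT1G04770, from the sulfur starvation list, had 102 on day 7, against 347 on day 1 (3.42-fold lower), with 322 and 117 on days 3 and 5. BGLU28, of the same sulfur list, had 2378 on day 7, against 2368 on day 1, a log2 ratio of 0.01, with 558 on day 3. PYE, a regulator of the response to low iron, was at -0.29.

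The low-oxygen list had 3 bright genes known by locus code, of which 1 passed 2-fold upward and 2 downward as deposited. The 2 lower ones did not pass with the hybridisation controls. AT5G42200 had 129 on day 7, against 31.0 on day 1 (4.17-fold higher), and had reached 126 on day 3. AT5G44730 had 64.1 on day 7, against 141 on day 1 (2.20-fold lower) after 492 on day 3, and AT3G10020 had 54.0, against 109.8 (2.03-fold lower). The other 19 probe sets of the list were under 100 on days 7 and 1 by the way they were set apart. Of these, 14 had a signal of 100 or more on day 3 or 5, each of them on day 3. On that day AT4G27450 had 1377 and AT1G33055 had 1243. The same share over all probe sets that were not bright was not counted.

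Of the 16 higher genes, 15 had their highest signal on day 7, beside 83.0% of the 1443 bright probe sets at least 2-fold higher. A higher signal at each step was found in 10 of the 16 and in 55.3% of the 1443. On day 5, 12 of the 16 were already at least 2-fold above day 1, beside 59.7%. Of the 14 lower genes, 8 had their highest signal on day 1, beside 90.7% of the 1365 bright probe sets at least 2-fold lower, while 4 had it on day 3 and 2 had it on day 5. A lower signal at each step was found in 2 of the 14 and in 72.6% of the 1365, and 11 of the 14 were at least 2-fold below day 1 on day 5, beside 39.6%. A day 7 level above or below day 1 chose these genes, which favours such courses, and the day 5 ratios share the day 1 array.

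The 179 stress probe sets known by locus code that were not bright gave little to compare: 126 were below the floor on both days. Of the 179, 12 were at least 2-fold higher on day 7 (6.70%) and 1 at least 2-fold lower (0.56%). Over all 22746 probe sets 2004 were higher and 1604 lower, and the bright ones made up 1443 and 1365 of these. Probe sets that were not bright thus leaned upward in general. Higher were 3 universal stress genes, among them AT1G09740 with 85.4 on day 7, against 30.1 on day 1, and AT3G15630 of the sugar starvation list with 87.2, against 12.3 (at least 3.49-fold). The lower one was AT5G44400, a berberine bridge enzyme-like gene, with 23.6 on day 7, against 82.9 on day 1 (at least 3.32-fold lower), and 335 on day 5. All 11 major latex protein-like genes and all 6 jacalin-like lectins known by locus code were below the floor on both days. JAL34, a jacalin-like lectin with a symbol, was bright on day 7 only, with 123, against 23.6 on day 1 (at least 4.91-fold higher). Just inside the limit of 100 were AT4G36010 at 102, AT4G28480 at 104 and AT2G36320 at 104, and just outside it AT3G27220 at 88.2, AT3G15630 at 87.2 and AT2G04050 at 87.1.

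Beyond the stress lists, the 10 largest ratios in each direction were taken among 3497 bright probe sets of genes known by locus code and above the floor on both days. Apart from a synonym for AT1G77750, the tables give these loci no function. AT4G16563 had a signal of 1007 on day 7, against 33.7 on day 1 (log2 ratio 4.90), AT1G71695 had 1026, against 45.6 (4.49), and AT2G30930 had 1464, against 116 (3.65). The other 7 of the 10 largest, AT3G17110, AT5G17820, AT3G22550, AT5G10740, AT5G01720, AT1G23140 and AT5G63130, lay between 3.34 and 3.82. AT3G22550 was the uneven one among them, with 32.5, 448, 66.1 and 440.1 on days 1, 3, 5 and 7.

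On the lower side AT3G06700 had 134 on day 7, against 1416 on day 1 (-3.40), AT5G02050 had 99.6, against 846 (-3.09), and AT1G77750, with the synonym RPS13, had 65.9, against 485 (-2.88). AT2G29500, the small heat shock gene, was among the 10 in this direction. AT1G23280, AT5G62440, AT3G10530 and AT4G30800 lay between -2.76 and -2.68. AT3G30670 (-3.09) and AT1G44060 (-2.77) did not follow a steady course, with 262, 31.6, 630 and 30.9, and 288, 34.3, 308 and 42.1, on days 1, 3, 5 and 7.

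The brightest probe sets of genes known by locus code were partly the same on both days. On day 7 they were AT1G51200, AT5G19510, AT3G22240, AT2G01610 and AT5G20290, with signals between 2456 and 3247, and on day 1 AT5G15200, AT3G53430, AT3G09200, AT5G19510 and AT2G01610, with signals between 3167 and 3368. AT5G19510 had 3245 on day 7 and 3176 on day 1 (log2 ratio 0.03), and AT2G01610 had 2933 and 3167 (-0.11). AT5G15200, AT3G53430 and AT3G09200 were at -1.25, -1.21 and -1.03.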

How the data were processed

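Total RNA of MM2d cells was hybridised to 1 ATH1 array per day, with 4 days in the series, of which days 7 and 1 were compared and days 3 and 5 give side values. The authors deposited 1 signal intensity per probe set and array on a linear scale, made, per the submitters' processing notes, with MAS5 of a version not stated there. The trimmed mean (2% at each end) was 100.0 on both arrays, so that a change in total RNA per cell leaves no trace. Dim signals have a large relative error, and the number of arrays limits the precision.

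From the table of 22810 probe sets, 64 controls were left out and signals below 25 were raised to 25. Genes were named by the platform's annotation table and RefSeq's gene table for TAIR10.1: 11885 probe sets name 1 gene by locus code only, 1551 by a symbol, 503 several genes, 77 a gene missing in the RefSeq table, and 8730 are unnamed here. The promoter motifs planned were not analysed here. The array annotation's genome build was not given, and no coordinates are printed. The members and lists were chosen with earlier results of these data known. Named are bright stress genes at least 4-fold different, up to 4 members per list, the 10 largest ratios in each direction and the 5 brightest per day. A few further members, symbol-carrying genes and dim genes were named after their values were seen. Python 3.11.15, numpy 2.4.6 and pandas 2.3.3 were used, and the ratio and count steps were tested on simulated arrays. Floor, scaling, brightness limit, fold limit and probe set suffixes were varied.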

Additional observations from a re-analysis of the deposited data

How the results depend on the processing

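Floors of 10, 50 or 1 and leaving out the suffixes _x_at and _s_at changed no count at 2-fold by over 1.5 times, but with the floor of 50, 3 of the 11 stress genes at least 4-fold different passed 4-fold. Bright probe sets and stress genes were chosen anew after each scaling for the counts and medians. With a common median 2059 bright probe sets were lower, and the median log2 ratio of the bright stress genes was -0.37. With the hybridisation controls, a setting chosen after seeing the data, 2209 were higher and 826 lower, and the medians were 0.29 for the stress genes and 0.36 for all bright probe sets. By construction, other limits changed the counts: a brightness limit of 200 left 851 higher probe sets, and 7 higher and 4 lower stress genes, and one of 50 gave 28 higher stress genes. A 1.5-fold limit gave 2360 higher and 2332 lower probe sets, and a 3-fold limit 740 and 493, with 9 and 9 stress genes. Brightness on both days, also chosen afterwards, gave 456 and 825, with 4 and 4 stress genes. The median of the low-oxygen list, -1.02, turned to 0.76 with the hybridisation controls, which leave 2 of its genes bright, and to 0.53 with the limit of 50, which admits 9; over the same 3 genes it was -0.73 with the hybridisation controls. That of the mitochondrial stress list, 2.54, turned to -0.18 with brightness on both days. As deposited these medians rest on 3 and 4 genes. All 30 stress genes past 2-fold kept their sign under 7 floors and scalings, and 23 stayed past 2-fold under all of them. No paired analysis was possible because each day has 1 array.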
